A study of Mus musculus with 4 samples.

Results

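Droplet barcodes in which more than 10% of the unique molecular identifiers (UMIs, one per captured RNA molecule) fell on mitochondrially encoded genes were examined in a mouse model of sonic hedgehog medulloblastoma, a tumour of the granule neuron lineage of the cerebellum. They were chosen by their readout: a barcode had to show at least 500 detected genes and more than 10% of its UMIs on the 13 genes whose symbols start with mt-. Of 4620 barcodes with at least 500 genes, 483 (10.5%) met the rule, out of 5670 barcodes in the files. The study states 4749 cells after its own quality filter, whose limits are not given in the sources used here. The comparison group was the 3259 barcodes with at least 500 genes and at most 5% mt- UMIs, and the 878 barcodes in between are called the intermediate barcodes. In all groups the cells came from the same 4 tumours.

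The tumours were those of 4 littermate Atoh1-cre:SmoM2 mice at postnatal day 20, with 1 library for 1 mouse. In this genotype Cre recombinase under Atoh1 control switches on SmoM2, a constitutively active form of the hedgehog signal transducer Smoothened, in granule neuron precursors. No mouse of another genotype, age or treatment was included, so every comparison is between barcodes of the same tumour, paired by mouse. The tumours were dissociated with the enzyme mixture Accutase, red cells were lysed, and cells stained by the dye 7-AAD, which enters cells with a broken membrane, were sorted out before 10x Chromium 3′ libraries were made.

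Mitochondrial DNA encodes 13 proteins of the respiratory chain and of ATP synthase, and its transcripts are made and kept inside the organelle, whereas most mitochondrial proteins are encoded in the nucleus and imported. Cytoplasmic messenger RNA can be lost from a cell whose plasma membrane leaks while RNA enclosed in mitochondria, in the nucleus or bound to the endoplasmic reticulum stays behind, so a high mitochondrial share is widely used to set aside damaged cells. Cell types also differ in mitochondrial content, and a share can be high for that reason. Because the share chose the barcodes, the mt- genes were left out of every total below, and levels are given as UMIs per 10000 nuclear-encoded UMIs.

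The mt- share of the 483 barcodes ran from 10.05% to 32.8% with a median of 12.7%. The share of barcodes that met the rule was 5% in mouse 1 (72 of 1440), 12.8% in mouse 2 (130 of 1018), 3.53% in mouse 3 (26 of 736) and 17.9% in mouse 4 (255 of 1426). Mouse 4 alone thus gave 255 of the 483, and mouse 3 gave 26. Above 15% were 11, 26, 1 and 71 barcodes of mice 1 to 4. Just outside and just inside the limit were 133 barcodes with more than 9% to 10% and 90 with more than 10% to 11% mt- UMIs. At the other limit, 117 barcodes over 10% fell short of the gene minimum by at most 50 genes and 110 passed it by fewer than 50.

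The high share came with few nuclear-encoded transcripts as well as with many mitochondrial ones. The median barcode over 10% held 827 nuclear-encoded UMIs, against 1099 in the intermediate barcodes and 2301 in those at most 5%. By mouse, the medians over 10% were 776, 818.5, 801.5 and 856, and the medians at most 5% were 2186.5, 2762, 1789.5 and 3286. The median number of mt- UMIs was 132, 88 and 68 in the same order of groups, and the median number of detected genes was 612, 730.5 and 1329. These values follow from the rule and were not tested. Fewer cells of a type and less RNA per cell cannot be told apart in a sum over barcodes, and depth per barcode moved with the groups throughout, so results are also given at matched depth. The makeup of the mt- UMIs differed little: mt-Atp6 made 26.1% of them over 10% and 25.4% at most 5%, mt-Co3 19.6% and 19.1%, mt-Co1 15.9% and 16.3%, and mt-Nd1 10.7% and 9.58%.

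**Figure D1:**
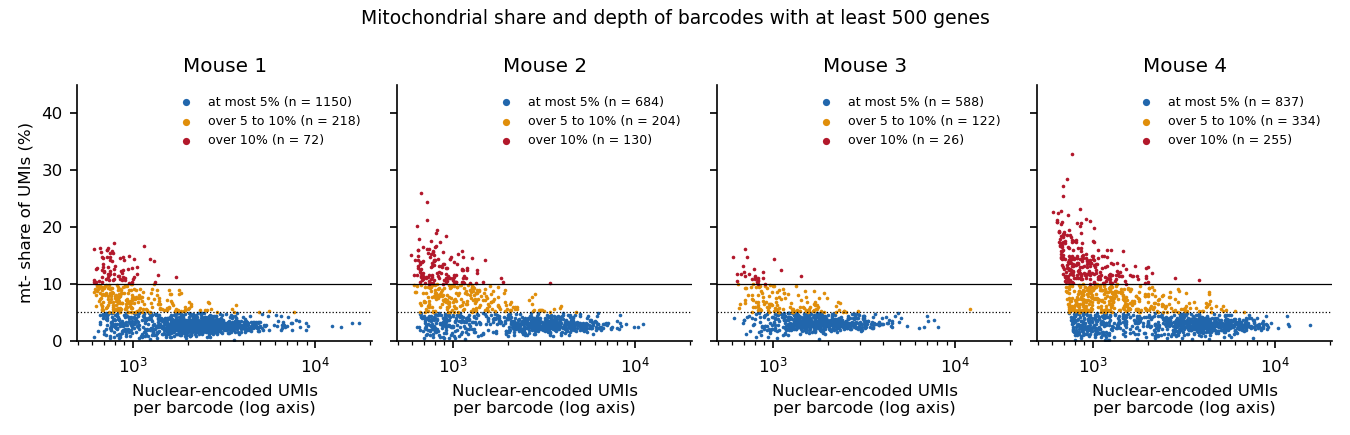
Each point is a barcode with at least 500 genes, in 1 panel per mouse, with nuclear-encoded UMIs on a log axis and the mt- share of UMIs in percent. The 483 barcodes above the solid line at 10% lie at the shallow end of each library, with a median of 827 nuclear-encoded UMIs against 2301 below the dotted line at 5%.

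Most of these barcodes lay in clusters counted as granule lineage, the lineage of the tumour. Barcodes were clustered without the mt- genes, and a cluster that met the marker rule of no other cell type was counted as granule-lineage-like, so the class is what was left after the others were set apart. It held 412 of the 483 (85.3%, exact 95% binomial interval 81.8 to 88.3%), 697 of the 878 intermediate barcodes (79.4%) and 3039 of 3259 (93.2%, 92.3 to 94.1%) at most 5%. Its 7 clusters summed from 14.4 to 37 UMIs per 10000 of the granule lineage markers, and the lowest of them was below the 15.8 of a mixed glial cluster outside the class. These markers (12 genes, among them the cerebellar transcription factors Atoh1, Zic1 and Barhl1) summed to 14.3, 17.89, 14.17 and 19.52 UMIs per 10000 in mice 1 to 4 over 10% and to 18.96, 20.88, 22.33 and 21.55 at most 5%. Both groups therefore expressed the lineage markers. The ranges overlapped, but within each mouse the sum was lower over 10%. Of the 9 markers tested, Zic5 and Zic1 were lower over 10% and the other 7 did not pass the test. Such class shares are described without a test, since the clusters were drawn from the same cells.

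Barcodes of an oligodendrocyte-precursor-like cluster, named from Ptprz1, Cspg5 and Lhfpl3 among its leading genes, were a larger share over 10% and among intermediate barcodes than at most 5%. Precursors of oligodendrocytes are dividing glial cells that later make myelin. They were 38 of the 483 barcodes (7.87%, 5.63 to 10.6%), 82 of the 878 intermediate ones (9.34%, 7.5 to 11.5%) and 43 of the 3259 (1.32%, 0.956 to 1.77%). By mouse the shares were 12.5%, 6.15%, 19.2% and 6.27% over 10%, and 0.87%, 2.49%, 1.53% and 0.836% at most 5%, so the share was higher over 10% in each of the 4 mice. Among intermediate barcodes it was 9.63%, 13.7%, 9.02% and 6.59%, which is above the share over 10% in mice 2 and 4. Seen from the class, 23.3% of the oligodendrocyte-precursor-like barcodes were over 10% (22.5%, 15.1%, 20% and 35.6% by mouse), against 9.93% of the granule-lineage-like barcodes (4.64%, 12.9%, 2.77% and 17.3%). The median mt- share of that cluster of 163 barcodes was 7.62%.

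A cluster with both astroglial and oligodendrocyte genes in the lead (such as Cnp and Aqp4) was left unnamed and is called mixed glia. It held 33 of the 483 barcodes (6.83%), of which 26 came from mouse 4, 98 of the 878 (11.2%) and 136 of the 3259 (4.17%). By mouse the shares were 2.78%, 2.31%, 7.69% and 10.2% over 10%, and 3.91%, 3.07%, 1.36% and 7.41% at most 5%. The share was thus lower over 10% in mice 1 and 2, and that of mouse 3 rests on 2 barcodes. Microglia, the resident macrophages of the brain, were missing. Of 42 microglia-like barcodes, 41 had at most 5% mt- UMIs, 1 was intermediate, and 0 of the 483 were in that cluster, which allows a share of up to 0.761% (exact 95% limit). The microglial markers summed to 0.2699 UMIs per 10000 over 10% with 9 of 12 genes at 0, and to 2.228 at most 5% with 0 of 12 at 0. Choroid plexus markers summed to 0.3149 over 10% and 5.327 at most 5%, where mouse 4 had 13.32. Markers of red blood cells were at 0 in both groups, and those of endothelium, mural cells and neutrophils summed to between 0.04499 and 0.2474 over 10%.

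**Figure D2:**
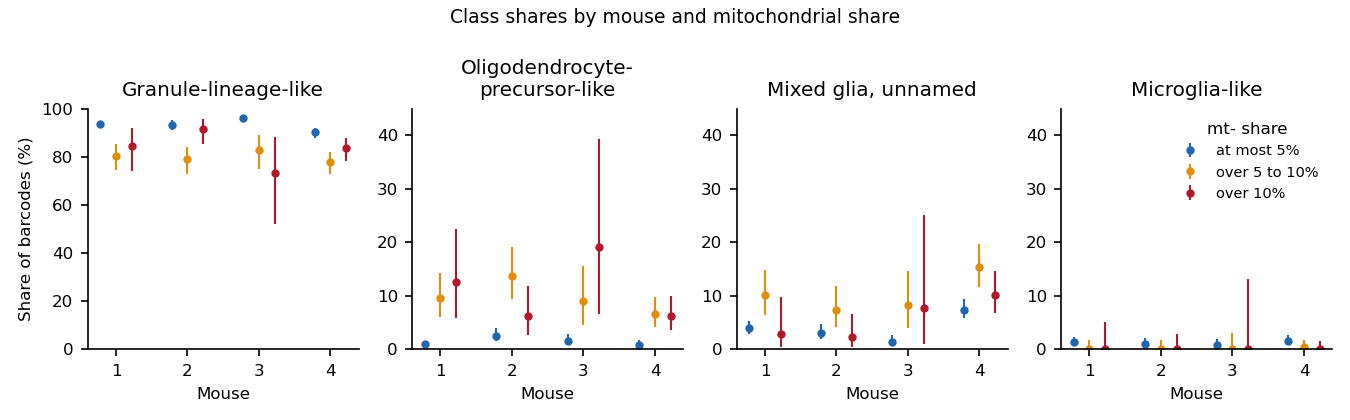
Each panel gives the share of barcodes in 1 class in percent, by mouse, for barcodes at most 5%, over 5 to 10% and over 10% mt- UMIs. Points are the shares and bars the exact 95% binomial intervals, which cover counting error only. Oligodendrocyte-precursor-like barcodes were 6.15 to 19.2% over 10% and 0.836 to 2.49% at most 5%.

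Which nuclear-encoded genes differed was asked with edgeR's quasi-likelihood test on UMI counts summed per mouse and group, with the mouse as a block. Sums held 60139, 117382, 21174 and 245862 nuclear-encoded UMIs over 10% and from 1167329 to 2846137 at most 5%, so the sums over 10% limit the precision. Of 7354 genes tested, 823 (11.2%) passed an adjusted p of 0.05, 421 of them higher over 10% (5.72%) and 402 lower (5.47%). Without mouse 4, 352 genes passed, without mouse 2, 486 did, and without the block 448 did. Within the granule-lineage-like barcodes, where the mix of named classes but not of clusters is held fixed, 547 of 7009 genes passed (7.80%), 265 higher (3.78%) and 282 lower (4.02%). With DESeq2's size factors in place of TMM the split was 343 higher and 243 lower. Single mice mattered here too, with 360, 197 and 109 genes without mouse 1, 2 and 4. The intermediate barcodes against the same barcodes at most 5% gave 715 of 7782 (9.19%), 452 higher (5.81%) and 263 lower (3.38%), or 472 without mouse 1 and 381 without mouse 4. These comparisons share barcodes, so their values are only set side by side.

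Among the 10 highest fold changes were 2 genes of the oligodendrocyte precursor list, Cspg4 and Ptprz1. Another 5, Lrp1b, Matn4, Meg3, Qpct and Pllp, were among the 10 leading genes of the precursor-like cluster but not on that list. The proteoglycan gene Cspg4 (NG2) was at 1.16, 0.256, 0.945 and 0.366 UMIs per 10000 in mice 1 to 4 over 10% and at 0.047, 0.0808, 0.00857 and 0.0351 at most 5%. The groups did not overlap, and the log2 fold change was 3.33 ± 0.49 (SE, adjusted p = 1.49e-09). Of 8 precursor markers tested, 7 rose, with a list median of 2.20, and 0 fell. Ptprz1, a receptor phosphatase of glial progenitors, rose by 2.88 ± 0.27 (adjusted p = 1.37e-23) and Meg3, an imprinted nuclear long non-coding RNA, by 3.15 ± 0.33 (adjusted p = 2.29e-18). Lrp1b (3.70), Matn4 (3.57), Brinp3 (3.45), 4430402I18Rik (3.13), Qpct (2.92), Gpr37l1 (2.69) and Pllp (2.63) make up the rest of the 10 highest. All but Ptprz1 of the 10 met the count filter only with their sums over 10%, where they are high. Their tests and ranks, and Cspg4 in the list count, are therefore not independent of that filter. Of these 10 genes 0 reached the count filter in the granule-lineage-like barcodes, and the 4 precursor markers tested there did not pass (median 0.77). Pooled over mice, glial transcripts were still higher over 10% in that class. Mouse 4 gave 213 of its 412 barcodes over 10% but 755 of its 3039 at most 5%, so the mice weigh differently in these sums. Precursor markers summed to 4.163 UMIs per 10000 against 2.808 at most 5%, astroglial ones to 10.77 against 6.105 and oligodendrocyte ones to 3.895 against 1.368. Sparcl1, Apoe and Mbp of the latter lists passed there. In the intermediate barcodes Ptprz1 and Meg3 were at 3.07 and 3.25 against the barcodes at most 5%, and over 10% against intermediate they were at -0.07 and 0.06 and did not pass. The 38 oligodendrocyte-precursor-like barcodes over 10% had 93.68 UMIs per 10000 of their own markers, against 65.84 in the 43 at most 5%, and 1401 against 400.3 of Malat1.

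Other glial markers rose with them, 5 of 10 astroglial markers tested (median 0.79) and 3 of 4 oligodendrocyte markers (median 1.20). The oligodendrocyte list summed to 3.159, 2.045, 4.25 and 13.67 UMIs per 10000 in mice 1 to 4 over 10% and to 1.337, 2.298, 0.9937 and 4.413 at most 5%. The level was thus highest in mouse 4 in both groups, and mouse 2 was lower over 10%. Of the 10 lowest fold changes 4 were those of genes known from microglia and other myeloid cells. The 10 met the count filter through the barcodes at most 5%, where they are higher, so their tests are not independent of it. C1qb, a complement subunit, had 0 UMIs over 10% and 277 at most 5%, which is at least 4.69-fold lower, counting 3 UMIs over the whole group as the limit. Lyz2 (2 UMIs against 480, a ratio of 0.0821 with a counting interval of 0.00994 to 0.297), Tyrobp (2 against 333) and Fcer1g (1 against 203) were likewise lower. The other 6 of the 10 lowest also rest on few UMIs over 10%, and Lmo1 and Ebf2 among them had lower fitted values than Lyz2. Lmo1, a transcriptional cofactor, had 0 against 188 (at least 3.18-fold lower) and Ebf2, a transcription factor, 1 against 226 (a ratio of 0.0872, 0.00221 to 0.486). Rad17 (2 against 281), Mospd1 (3 against 381), Rmnd5a (2 against 204) and Stk4 (2 against 198) complete them. Without mouse 4, Fcer1g and these 6 no longer passed.

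Malat1 and 3 other nuclear long non-coding RNAs were higher. Malat1, an abundant long non-coding RNA of nuclear speckles (GRCm38 chr19:5795690-5802672), stood at 336, 448, 434 and 436 UMIs per 10000 over 10% in mice 1 to 4 and at 120, 170, 163 and 140 at most 5%. The groups did not overlap, and the fold change was 1.32 ± 0.06 on the log2 scale (adjusted p = 2.36e-94). In granule-lineage-like barcodes it was 0.99 ± 0.09 (adjusted p = 5.94e-24), with 269.6, 365.2, 322.5 and 350.3 over 10% against 119.0, 162.0, 160.6 and 140.2. Per barcode, the median level was 299 over 10% and 127 at most 5%. In the intermediate barcodes it was 85.8, below both, although their summed level was higher than at most 5% (log2 fold change 0.71): 45.2% of them were under 50 and 16.7% over 500, against 21.9% and 2.09% at most 5%.

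Of 5 nuclear long non-coding RNAs tested 4 rose, the others being Meg3, Gm26917 (1.51 ± 0.29) and Kcnq1ot1, an antisense RNA at an imprinted locus (0.57 ± 0.15). Neat1 was too low to be tested, with 6 UMIs over 10% and 50 at most 5%. The 3 of these 4 that could be tested among granule-lineage-like barcodes (Malat1, Gm26917 and Kcnq1ot1) rose there too, and Meg3 was at 0 in their bands over 10%. Messenger RNAs of splicing and speckle proteins were mixed: 5 of 28 rose and 4 fell. Son, a speckle scaffold, was at 10.6, 11.9, 5.67 and 14.2 UMIs per 10000 over 10% and at 4.52, 5.13, 5.56 and 5.96 at most 5%. Mouse 3 overlapped the other group and the other 3 mice did not, and the fold change was 1.03 ± 0.11 (adjusted p = 1.78e-17). Luc7l2, Rbm39, Srrm2 and Clk1 rose as well, each in 3 of 4 mice, while the splicing factors Srsf3, Srsf6, Srsf7 and Hnrnpa1 fell.

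**Figure D3:**
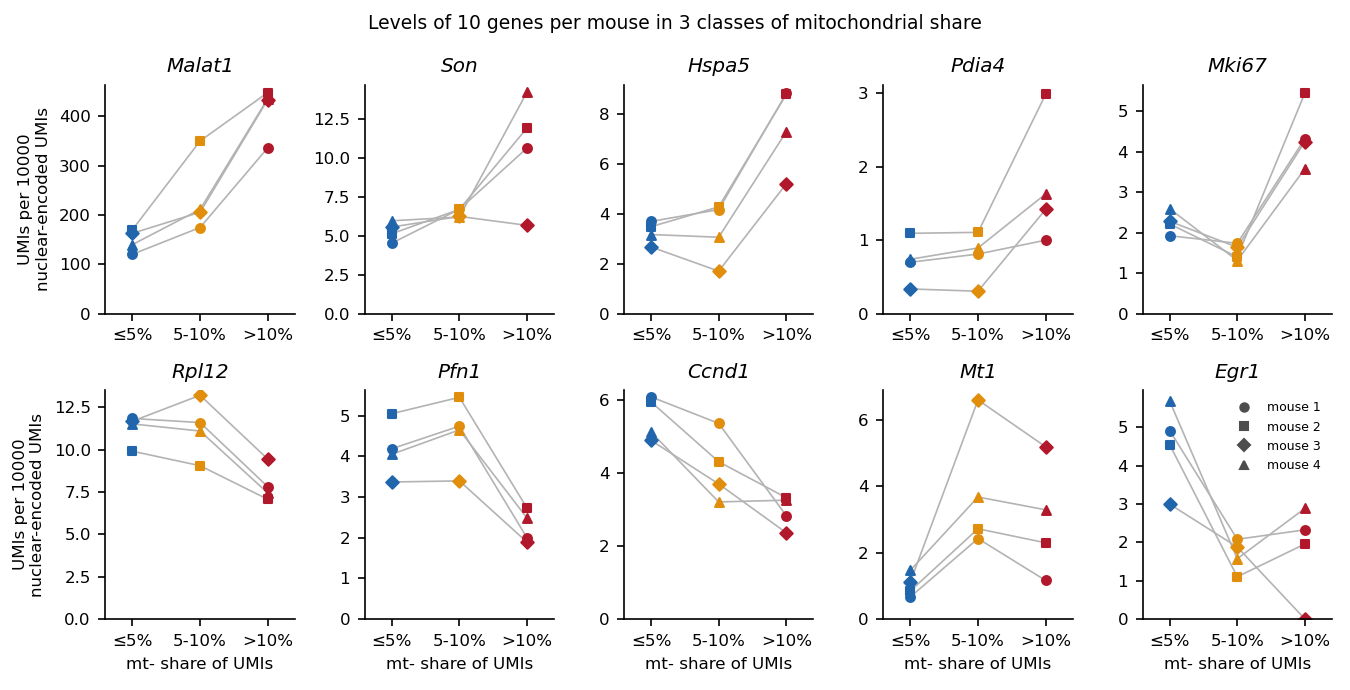
UMIs per 10000 nuclear-encoded UMIs of 10 genes in barcodes with at most 5%, over 5 to 10% and over 10% mt- UMIs, with 1 symbol and line per mouse and each axis starting at 0. Within each of the 4 mice Malat1, Hspa5 and Mki67 are highest over 10%, while Mt1 and Egr1 are already shifted in the intermediate barcodes.

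Of the list of proteins of the endoplasmic reticulum, whose transcripts are translated on its membrane, 11 of 26 genes were higher and 0 lower. Hspa5, the lumenal chaperone BiP (chr2:34772090-34776529), was at 8.81, 8.77, 5.2 and 7.28 UMIs per 10000 over 10% and at 3.69, 3.47, 2.66 and 3.16 at most 5%. The groups did not overlap and the fold change was 1.14 ± 0.13 (adjusted p = 6.81e-16). The median of the 26 was 0.49, against -0.04 over all genes tested. The 11 were the chaperones Hspa5, Hsp90b1 (0.88 ± 0.14), Canx and Calr, the disulphide isomerases Pdia3, Pdia4 (1.14 ± 0.23) and Pdia6, the oligosaccharyltransferase subunits Rpn1 (1.14 ± 0.21), Rpn2 (1.10 ± 0.16) and Ddost, and Creld2. Without mouse 2, 6 of 26 rose, and Pdia4 was among those that no longer passed. In granule-lineage-like barcodes the count was again 11 of 26 (median 0.53), with Ssr1 in place of Creld2, and Hspa5 stood at 1.14 ± 0.14.

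Not every gene of the list followed. The small translocon subunits Sec61b and Sec61g were at -0.41 ± 0.17 and -0.32 ± 0.12 and did not pass (adjusted p = 0.113 and 0.052). Xbp1 and Dnajb9, regulator and target of the unfolded protein response, were at -1.13 ± 0.47 and -0.32 ± 0.43 (adjusted p = 0.0963 and 0.72). Ddit3, the CHOP factor induced by prolonged stress of this organelle, was near zero (-0.12 ± 0.57, adjusted p = 0.935), and Atf4, its upstream regulator, fell by 0.88 ± 0.23 (adjusted p = 0.00324). Of 12 tested targets of that stress pathway 2 rose, Vldlr (1.32 ± 0.47, from 16 UMIs over 10%, 0 of them in mouse 3) and Slc3a2, and Atf4 alone fell, though not without mouse 4. Slc3a2, a subunit of amino acid transporters, was at 6.48, 8.18, 5.2 and 5.82 UMIs per 10000 over 10% and 3.4, 3.32, 2.48 and 2.72 at most 5% (1.02 ± 0.14, adjusted p = 1e-11). In the intermediate barcodes 2 of 26 genes of the endoplasmic reticulum list passed, and Hspa5 was at 0.11 (adjusted p = 0.559). Against the intermediate barcodes themselves, a comparison added after the data were seen, Hspa5 was higher over 10% by 1.12 (adjusted p = 5.32e-13), and 12 of 23 genes of the list rose and 1 fell, where 7.73% of 3520 genes rose and 6.90% fell.

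Genes for cytosolic ribosomal proteins, and most of a short list of abundant cytoskeletal and cytosolic proteins, were lower. Of 82 genes for cytosolic ribosomal proteins 60 fell and 0 rose, with a median of -0.41, and within granule-lineage-like barcodes 52 fell and 0 rose (median -0.38). Summed, they made 1544, 1456, 1635 and 1392 UMIs per 10000 in mice 1 to 4 over 10% and 1875, 1800, 1748 and 1734 at most 5%, so the groups did not overlap although each change was small. Without the mouse as a block 37 of the 82 fell. Rpl12, the called gene of the list with the largest fall, was at 7.82, 7.07, 9.45 and 7.44 over 10% and 11.8, 9.91, 11.7 and 11.5 at most 5% (fell by 0.66 ± 0.11, adjusted p = 3.35e-07). Rplp1, a stalk protein of the large subunit, fell by 0.40 ± 0.11, but did not pass without mouse 4. Several ribosomal protein genes have near-identical pseudogene copies, which makes single members less certain than the list.

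Of 25 genes for abundant cytoskeletal and cytosolic proteins, 16 fell and 2 rose (median -0.40). Pfn1, which binds actin monomers, was at 2, 2.73, 1.89 and 2.48 UMIs per 10000 over 10% and at 4.18, 5.05, 3.37 and 4.05 at most 5%. The groups did not overlap, and the log2 fold change was -0.92 ± 0.17 (adjusted p = 2.11e-06). Ptma, an abundant acidic protein of the nucleus and cytosol, fell by 0.70 ± 0.07, Actb by 0.45 ± 0.08, Tmsb4x by 0.43 ± 0.08 and the elongation factor Eef1a1 by 0.27 ± 0.07, the last in 3 of 4 mice. The exceptions were the neuronal tubulins Tubb2b (0.42 ± 0.10, not passed without mouse 4) and Tuba1a (0.38 ± 0.07). The intermediate barcodes went the other way: against at most 5%, 31 of 82 ribosomal protein genes rose and 0 fell (median 0.15), and of the 25 cytoskeletal and cytosolic genes 6 rose, Tmsb4x among them, and Marcks fell (median 0.05). Rpl12 was at 0.06, Pfn1 at 0.22 and Ptma at -0.06 there. Against those barcodes 67 of 81 ribosomal protein genes and 16 of the 25 cytosolic genes fell over 10%, and 0 of either list rose.

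**Figure D4:**
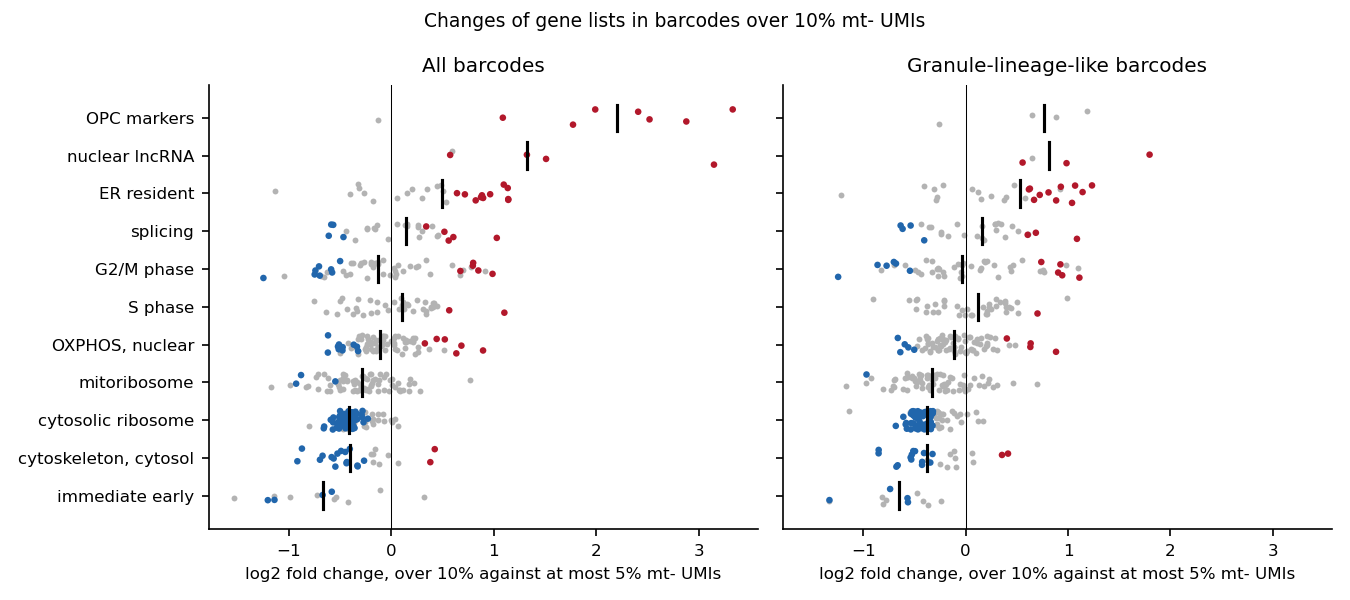
Log2 fold changes of the tested genes of 11 lists, over 10% against at most 5% mt- UMIs, in all barcodes (left) and in granule-lineage-like barcodes (right). Red and blue points passed an adjusted p of 0.05, grey points did not, and black bars are list medians. Cytosolic ribosomal protein genes lie to the left (60 of 82 lower) and genes of the endoplasmic reticulum to the right (11 of 26 higher).

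Nuclear genes of the respiratory chain went both ways. Of 80 genes for nuclear-encoded subunits and assembly factors of the respiratory chain and ATP synthase, 6 rose and 10 fell, with a median of -0.11. The largest called rise was that of Ndufb9, a subunit of complex I, at 10.3, 8.95, 12.8 and 10.9 UMIs per 10000 over 10% and 4.94, 4.71, 6.27 and 5.28 at most 5%. The groups did not overlap (0.90 ± 0.11, adjusted p = 1.14e-12). Cytochrome oxidase subunits made up 4 of the other 5 that rose: Cox6a1 (0.68 ± 0.11), Cox6c (0.64 ± 0.10), Cox8a (0.44 ± 0.11) and Cox4i1 (0.33 ± 0.09), beside Sdha of complex II. Cox4i1 did not pass without mouse 2 or without mouse 4. The ATP synthase genes Atp5e and Atp5g3 fell by 0.62 ± 0.13 and 0.52 ± 0.18, the second not without mouse 1 or 4, while Atp5b was at 0.03 ± 0.10 (adjusted p = 0.915). The summed list was at 394.8, 393.4, 444.9 and 386.8 over 10% and 370.5, 364.9, 380.1 and 384.7 at most 5%. The sum was thus higher over 10% in each of the 4 mice, with no overlap, while the median of the single genes was below 0. The sum is a share of UMIs without the TMM factors that scale the fold changes, so their signs are not directly comparable. Among intermediate barcodes 43 of 81 genes of the list rose against at most 5% and 0 fell (median 0.28).

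Of 76 genes for the mitochondrial ribosome 0 rose and 3 fell, Mrpl50 (fell by 0.93 ± 0.31, not passed without mouse 2 or 4), Mrpl35 and Mrpl18. Over all genes tested 5.72% rose and 5.47% fell, so 3 of 76 is below the share that fell. Among import machinery and chaperones 1 of 30 rose and 5 fell: the matrix chaperone Hspd1 was higher (0.57 ± 0.13, adjusted p = 0.000268, not passed without mouse 2), and the import subunits Timm17b (fell by 0.97 ± 0.32, not passed without mouse 2 or 4), Tomm20, Tomm5 and Timm13 and the co-chaperone Grpel1 were lower. Tfam, which packages and transcribes mitochondrial DNA, was at -0.91 ± 0.36 on 19 UMIs over 10% and did not pass (adjusted p = 0.0755). Polg, the mitochondrial DNA polymerase, was the 1 of 9 genes of mitochondrial DNA upkeep that rose, in 3 of 4 mice. Of 12 genes of mitochondrial division and mitophagy, Mff (fell by 0.83 ± 0.21, adjusted p = 0.00184), a fission factor, and Bnip3l, a mitophagy receptor, fell and 0 rose.

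Cell cycle genes split. Mki67, a coat protein of mitotic chromosomes, was at 4.32, 5.45, 4.25 and 3.58 UMIs per 10000 over 10% and at 1.92, 2.21, 2.28 and 2.59 at most 5%. Top2a, the topoisomerase of dividing cells, was at 6.65, 6.64, 6.14 and 9.88 against 3.25, 4.08, 3.64 and 4.53. Neither gene overlapped between the groups, with fold changes of 0.80 ± 0.16 (adjusted p = 1.64e-05) and 0.85 ± 0.13 (adjusted p = 3.37e-09), and of 0.93 and 0.94 within granule-lineage-like barcodes. Without mouse 2, Mki67 was at 0.56 and did not pass (adjusted p = 0.0572). Of 51 genes of the G2 and M phases 5 rose and 8 fell. Those that rose were Lbr, the lamin B receptor of the inner nuclear membrane (0.99 ± 0.23), Top2a, Mki67, and the kinetochore genes Nuf2 and Hjurp. Among those that fell were Cks2, a small cofactor of cyclin-dependent kinase (1.25 ± 0.17 lower, adjusted p = 1.18e-11), Ccnb2, Cenpa, Hmgb2, Ube2c and Birc5. Of 40 S phase genes 2 rose, Pola1 (1.10 ± 0.34, not passed without mouse 2) and Dtl, and 0 fell. The 2 of 40 are near the 5.72% of all genes tested that rose.

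In the intermediate barcodes 16 of 52 genes of the G2 and M list fell against at most 5% and 0 rose (median -0.33). Mki67 was among those that fell (-0.56, adjusted p = 0.00026), and Top2a was at -0.10 and did not pass (adjusted p = 0.597). Over 10% against intermediate, Mki67 rose by 1.50 (adjusted p = 9.39e-13), and 11 of 36 genes of the G2 and M list rose and 2 fell. Among clusters, the one led by the mitotic genes Ccnb1, Plk1 and Aspm held 81 of the 483 barcodes, 51 of the 878 and 326 of the 3259. The other cycling cluster, led by Hist1h1b, Hist1h2al and Esco2, held 30, 25 and 386 and was thus a smaller share over 10% than at most 5%. Pooled over mice, the cluster led by Miat and Igfbpl1 held the most granule-lineage-like barcodes over 10% (87, against 462 at most 5%). At most 5% the one led by Pdlim3 and Hes1 did (681, against 57). These counts are not paired by mouse, and mouse 1 gave 493 of the 798 barcodes of the Pdlim3 and Hes1 cluster. Mouse 1 also gave 1150 of the 3259 barcodes at most 5% but 72 of the 483 over 10%. By mouse, 2.03%, 15.1%, 2.5% and 21.5% of that cluster were over 10%. Of all barcodes with at least 500 genes, 5%, 12.8%, 3.53% and 17.9% were, so the mice did not go 1 way.

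Hedgehog pathway genes, which carry the driver of the tumour, also went both ways. Hhip, a ligand decoy, rose (1.44 ± 0.46 on 17 UMIs, not passed without mouse 2, 3 or 4), and of the 15 tested 3 fell. Hhip met the count filter only with its sums over 10%, where it is high, so its test is not independent of that filter. Ccnd1, cyclin D1, was at 2.83, 3.32, 2.36 and 3.25 UMIs per 10000 over 10% and 6.08, 5.94, 4.89 and 5.12 at most 5% (fell by 0.91 ± 0.15, adjusted p = 1.07e-07). Mycn, at 1.16, 1.7, 0 and 1.3 against 2.26, 2.48, 2.42 and 2, fell by 0.84 ± 0.21 (adjusted p = 0.00178), and Ccnd2 by 0.49 ± 0.11. The membrane receptor Ptch1 was at 3.66, 2.73, 3.78 and 3.7 against 3.25, 2.33, 2.97 and 2.47 and did not pass (0.28 ± 0.16, adjusted p = 0.281). Gli1, the pathway's transcription factor, was at -0.08 ± 0.42 on 17 UMIs. In the intermediate barcodes Ptch1 was lower than at most 5% (-0.80, adjusted p = 1.77e-08), and over 10% against intermediate it rose by 1.24 (adjusted p = 1.44e-07).

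Of 13 immediate early genes, which respond within minutes to dissociation and other stimuli, 4 fell, 0 rose and 9 did not pass. Egr1 was at 2.33, 1.96, 0 and 2.89 UMIs per 10000 over 10% and 4.92, 4.55, 3 and 5.69 at most 5% (fell by 1.21 ± 0.17, adjusted p = 6.6e-11), with no overlap. Btg2 and Ier2 fell too. Jun fell by 0.58 ± 0.15, in 3 of 4 mice, and did not pass without mouse 2 (adjusted p = 0.13), and Fos (-0.54 ± 0.21) did not pass (adjusted p = 0.0772). Among intermediate barcodes 7 of the 13 fell and 0 rose (median -0.76). Against those barcodes Jun was higher over 10% (0.56, adjusted p = 0.0284), as it was among barcodes with under 500 genes (1.15, adjusted p = 0.00245), and Egr1 was at 0.49 and did not pass (adjusted p = 0.114). Of 23 antioxidant and iron genes 19 were tested, and the metallothioneins Mt1 (1.21 ± 0.20, adjusted p = 1.39e-07) and Mt2 rose while Prdx1 (fell by 0.53 ± 0.11), Prdx2, Prdx6 and Ftl1 fell. Heat shock genes gave 1 of 9 lower, Hsp90ab1 (fell by 0.30 ± 0.08). Of 14 glycolysis genes Pgam1 (fell by 0.59 ± 0.19, not passed without mouse 4) and Gapdh fell.

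Of 19 genes of the p53 and apoptosis list Sesn1 (9 UMIs over 10%) fell, though not when any 1 mouse was left out, and Aifm1, a flavoprotein of the mitochondrial intermembrane space, rose. Both counts are near the shares over all genes tested (5.72% higher and 5.47% lower). Bax was at -0.11 ± 0.18 and Cdkn1a at -0.73 ± 0.28 (adjusted p = 0.766 and 0.0771). Synaptic genes gave 3 of 15 higher, led by the glutamate receptor gene Gria2 (1.49 ± 0.19, adjusted p = 3.39e-12). Gria2 was at 2.83, 3.07, 1.89 and 3.29 UMIs per 10000 over 10% against 0.849, 1.11, 0.771 and 1.05 at most 5%. Within granule-lineage-like barcodes it rose by 1.21 as well, in 3 of 4 mice. Stmn2, a marker of young neurons, was at 0.32 ± 0.13 and did not pass (adjusted p = 0.1). Of 16 tetraspanin and vesicle genes Cd9 (0.60 ± 0.11), Cd81 (0.42 ± 0.11, not passed without mouse 2) and Tspan3 rose, Cd63 (0.23 ± 0.09, adjusted p = 0.0911) did not pass, and within granule-lineage-like barcodes 0 of 16 passed.

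Depth differed between the groups, so the comparison was repeated on barcodes of 600 to 1000 nuclear-encoded UMIs, which hold 356 of the 483 over 10% (median 766) and 362 of the 3259 at most 5% (median 845). At this depth 64.4% of the barcodes at most 5% lay in 1 granule-lineage-like cluster with the lowest Malat1 level of the 10 clusters (29.1 UMIs per 10000) and high ribosomal protein levels, against 14.3% over 10%. Of 1453 genes tested 13.4% rose and 9.36% fell. Malat1 (1.53), Hspa5 (2.13, adjusted p = 6.92e-10), Son (1.37), Hspd1 (1.07), Ndufb9 (1.26), Gria2 (2.14), Mki67 (1.99) and Top2a (1.10) were higher over 10% here too. So were 12 of 17 genes of the endoplasmic reticulum (median 1.45), and 53 of 78 ribosomal protein genes were lower with 1 higher (median -0.39), as was Pfn1 (-1.22). Ptch1, which had not passed, rose by 2.26 (adjusted p = 4.73e-07). Slc3a2 rose as well (1.79). The differences of Egr1 (0.78), Jun (0.55) and Mt1 (-0.27) turned their sign and did not pass, and Ccnd1 (-0.38) no longer did. Thinning each barcode to 600 nuclear-encoded UMIs evened the count per barcode but kept nearly the same barcodes in both groups, with their expected proportions. It therefore cannot show how barcodes captured at equal depth differ. After thinning, Egr1 (-0.74, adjusted p = 0.00325), Mt1 (0.79, adjusted p = 0.0148) and Ccnd1 (-0.87, adjusted p = 6.81e-05) kept their sign and passed. Jun (-0.41, adjusted p = 0.126) did not pass. Leaving the low-Malat1 cluster out of both groups at any depth left 892 of 7227 genes called, 6.02% higher and 6.32% lower, with 66 of 82 ribosomal protein genes lower and 12 of 26 genes of the endoplasmic reticulum higher and 2 lower.

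A further set of barcodes that the rule had not used, those with under 500 genes, allowed the same question. Over 10% mt- UMIs were 381 of these 1050 (105, 67, 196 and 13 by mouse), at a median of 521 nuclear-encoded UMIs, and 342 were at most 5%, at 591.5. Mouse 4 had 2 barcodes at most 5% and was left out, so this fit rests on 3 mice, with mouse 3 now giving the most. Of 1254 genes tested 16.7% rose and 10.6% fell. Summed by group, Malat1 was at 396 UMIs per 10000 over 10% and 99.5 at most 5%, and Hspa5 at 8.55 and 1.026. With at least 500 genes, Malat1 averaged 414 and 148 over mice and Hspa5 7.52 and 3.25. Ribosomal protein genes at most 5% summed to 2244 here and to 1796 with at least 500 genes. The control thus differs from that of the first comparison, and sizes of fold changes cannot be compared between them. Malat1 (2.30, adjusted p = 7.45e-125), Hspa5 (3.27, adjusted p = 1.25e-30), Son (1.57), Hspd1 (1.07), Ndufb9 (1.05), Mki67 (2.12) and Top2a (2.52) rose. Of 15 genes of the endoplasmic reticulum 11 rose and 0 fell, and of 77 ribosomal protein genes 53 fell and 0 rose. Mycn went the other way, rising by 1.28 (adjusted p = 0.00443), as did Jun (1.15, adjusted p = 0.00245), while Ccnd1 was at 0.26 and Ccnd2 at 0.25 and neither passed.

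Across finer bands of mt- share the groups of genes did not change along a single line. In granule-lineage-like barcodes Malat1 averaged 148.8 ± 17.7 UMIs per 10000 (SD over 4 mice) at up to 2.5% mt- UMIs, 118.6 ± 24.1 at 5 to 7.5%, 298.9 ± 30.5 at 10 to 12.5% and 371.6 ± 67.2 over 15% (3 mice). Genes of the endoplasmic reticulum stayed between 49.33 and 54.12 up to 7.5% and were at 68.09 ± 9.05 at 10 to 12.5% and 96.67 ± 16.2 over 15%. Ribosomal protein genes were highest at 5 to 7.5% (2052 ± 63.8) and lowest over 15% (1390 ± 83.4). At 10 to 12.5% (1594 ± 56.2) they were already below both bands up to 5% (1679 ± 51.1 and 1853 ± 86.3). Respiratory chain genes were also highest at 5 to 7.5% (443 ± 10.5) but lowest at up to 2.5% (360.3 ± 5.69), and at 10 to 12.5% (404.9 ± 15.1) they were above both bands up to 5%. Over 15% they were at 362.9 ± 10.4. Over all barcodes the precursor markers peaked at 7.5 to 12.5% mt- UMIs (19.13 ± 5.58 and 18.77 ± 6.32) and were at 9.93 ± 5.53 over 15%. These are descriptions along the measure that chose the barcodes.

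**Figure D5:**
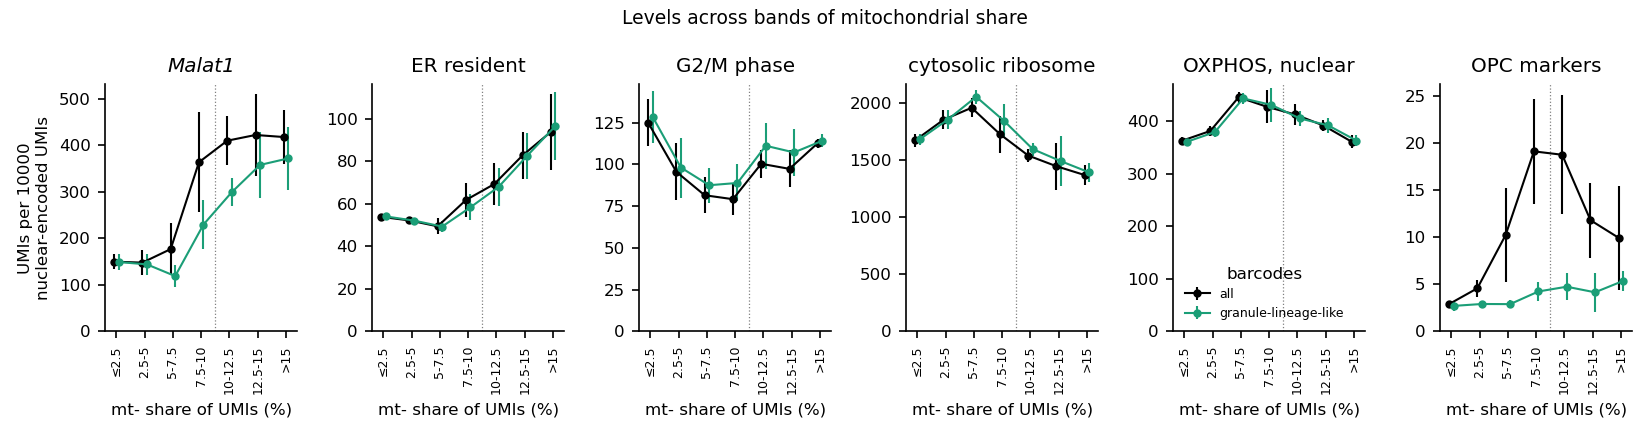
Mean level over mice (UMIs per 10000 nuclear-encoded UMIs, bars are SD over 4 mice, or over 3 above 12.5%) in 7 bands of mt- share, for all barcodes (black) and granule-lineage-like barcodes (green). The dotted line marks 10%. In granule-lineage-like barcodes Malat1 goes from 118.6 at 5 to 7.5% to 371.6 over 15% while ribosomal protein genes go from 2052 to 1390.

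The genes that rose and those that fell also differed in structure. By GENCODE vM21 (GRCm38), the 415 higher genes with an annotation had a median span of 33.5 kb, a median transcript of 3771 bases and a median of 12 exons. The 391 lower genes had medians of 8.50 kb, 2011 bases and 6 exons, and all genes tested 23.7 kb, 3316 bases and 9 exons. In granule-lineage-like barcodes the spans were 31.8 kb and 7.11 kb, against 23.6 kb over all genes tested. Higher and lower genes were thus on opposite sides of the genes tested in each of the 3 measures, which is a description without a test.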

How the data were processed

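The deposited files hold UMI counts per gene and barcode, 1 file per library, made with Cell Ranger 2.0.2 against mm10, per the submitters' processing notes, which also name Seurat. Mouse 1's library went through sequencing a second time, per the labels' protocols. From the counts, barcodes were grouped by detected genes and mt- share. Libraries held 1173 to 1779 barcodes and 1679285 to 3801197 UMIs. Pairs of libraries shared 1 to 5 barcode sequences, and 3 of the 483 barcodes carried one found in another library. No doublet caller was run.

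Barcodes with at least 500 genes were clustered with scanpy 1.11.5 (2000 variable genes, 30 components, Leiden resolution 1) without mt- genes, pathway genes that are no markers, and Xist. A cluster was named where at least 3 fixed markers of a type stood 1 log2 unit above the rest and 1 was among its 10 leading genes. Other clusters counted as granule-lineage-like. The cluster of mixed glia was set apart after the data were seen.

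Counts without mt- genes were summed per mouse and group (at least 10 barcodes) and tested with edgeR 4.0.16 (filterByExpr, TMM, quasi-likelihood test with the mouse as a block); p-values were adjusted by Benjamini-Hochberg across every gene of a fit. TMM factors ran from 0.932 to 1.28 in the first comparison and from 0.926 to 1.39 in granule-lineage-like barcodes. In both the highest was that of mouse 3 over 10%. Fold changes are relative to these factors, so they can differ from the ratio of levels. SE is the fold change over the square root of F. Same-mouse sums come from 1 library and deviated together from the group means. The correlation was 0.114 to 0.159 in the first comparison and 0.104 to 0.17 in granule-lineage-like barcodes, each above that with any other mouse. The mice are separate animals. The script was tested on simulated data. Alternatives include DESeq2 1.42.0; those chosen after seeing the data are named as such.

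Named genes are the 10 highest and 10 lowest called with 1 sign in 4 mice and at least 20 UMIs, the extreme called gene of each pathway list in each direction, and a fixed panel; further list members were named after their values were seen. The members, lists and rules were chosen with earlier results of these data known. Some list genes that passed the test are not reported here.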

Additional observations from a re-analysis of the deposited data

Results flagged for a closer look

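Among 95 sets of 4 mice looked at, 14 held 1 mouse apart from the other 3, where chance gives about 1 in 20. For single genes the value is the log2 ratio of levels, over 10% against at most 5%, with 0.1 UMIs per 10000 added to both.

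Of these, 9 were mouse 3, whose 26 barcodes over 10% gave 21174 UMIs. In that mouse the ratio was 3.17 for Meg3 (2.40, 2.48 and 2.45 in mice 1, 2 and 4), 0.03 for Son (1.22, 1.20 and 1.24), 0.81 for Bax (-0.11, -0.05 and -0.12) and -0.83 for Ccnd2 (-0.36, -0.34 and -0.34). It was -4.95 for Egr1, -4.46 for Srsf6, -4.65 for Mycn and -3.55 for Mrpl50, which had 0 UMIs over 10% in mouse 3, so these 4 sizes depend on the added level.

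In mouse 2 the ratio was -1.33 for C1qb (-2.15 to -2.28 in the others), -1.57 for Timm17b (-0.54 to -0.61) and -1.08 for Fos (-0.23 to -0.36). In mouse 4 it was -0.56 for Prdx1 (-0.31 to -0.33). Nuclear long non-coding RNAs over 10% summed to 343.5 UMIs per 10000 in mouse 1, against 442.1 to 455.5 in the others, and nuclear respiratory chain genes to 444.9 in mouse 3, against 386.8 to 394.8.

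The gene minimum set aside 381 barcodes over 10% mt- UMIs, whose values stand in the report.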

How the results depend on the processing

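The number of genes called over 10% against at most 5% was 823. It was 448 without the replicate block, which pairs the sums of a mouse, 256 with DESeq2's Wald test, 114 after thinning to 1000 nuclear-encoded UMIs, 205 at 1000 to 3000 UMIs (mouse 3 dropped in both), 182 with barcodes over 15% (mouse 3 dropped) and 352 to 920 leaving out 1 mouse. Chosen after the data were seen were 600 to 1000 UMIs (330), thinning to 600 (534), barcodes under 500 genes (342) and intermediate barcodes as the control (515). In granule-lineage-like barcodes 547 became 254 without the replicate block, 174 with DESeq2, 303 at 600 to 1000 UMIs and 109 to 735 leaving out 1 mouse. For intermediate barcodes 715 became 166 without the replicate block, 409 in granule-lineage-like barcodes and 381 to 540 leaving out 1 mouse. With no filter on low counts the first comparison gave 243 higher and 598 lower genes. A minimum of 1000 genes could not be fitted for lack of barcodes. Of the genes called without the block, each was also called with it in the 3 comparisons. At Leiden resolution 0.5 the low group was 2.12% oligodendrocyte-precursor-like and 94.4% granule-lineage-like.

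Of 60 named genes called, 15 changed sign somewhere, where Mycn and Jun passed under 500 genes and Jun and, uncalled before, Stmn2 against intermediate barcodes; the cause was not tested. At 600 to 1000 UMIs these were Egr1 (0.78), Jun (0.55), Mt1 (-0.27), Ccnd2 (0.03) and, uncalled, Stmn2 (-0.02). Under 500 genes they were Mycn (1.28), Jun (1.15), Ccnd1 (0.26), Ccnd2 (0.25), Srsf6 (0.15), Hsp90ab1 (0.12), Pgam1 (0.03) and Mt1 (-0.004). Against intermediate barcodes they were Jun (0.56), Egr1 (0.49), Cdkn1a (0.26), Fos (0.13), Cox4i1 (-0.05), Ptprz1 (-0.07), Pllp (-0.16), Tubb2b (-0.18), Stmn2 (-0.36) and Mt1 (-0.37). Over 15% they were Atp5b (-0.49), Stmn2 (-0.39), Tubb2b (-0.26), Cox4i1 (-0.24) and Cd9 (-0.12). At 1000 to 3000 UMIs they were Bax (0.31), Gli1 (0.27), Cdkn1a (0.10), Atp5b (-0.08), Stmn2 (-0.17) and Cd63 (-0.19). After thinning to 1000 they were Bax (0.12), Atp5b (-0.07), Cd63 (-0.15) and Cd81 (-0.15), and after thinning to 600 Stmn2 (-0.07). Leaving out 1 mouse, values ran from -0.29 to 0.02 for Ddit3, -0.04 to 0.06 for Atp5b (-0.03 without mouse 3), -1.11 to 0.15 for Gli1 (0.11 without mouse 2) and -0.12 to 0.30 for Cd63. With no filter Atp5b was at -0.16, and without the low-Malat1 cluster Gli1 was at 0.12. Mouse 3's 21174 UMIs limit what single genes show there.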
